A study of Mus musculus with 14 samples.

Results

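Among 4088 freshly isolated cells of the mouse subventricular zone, 185 carried 50 or more counts of the hashing antibodies and 1393 carried under 5, and these strongly tagged and untagged cells were compared by their transcripts. The tag counts of each cell barcode were summed over the 3 tags (HTO_1, HTO_2 and HTO_3) and joined to the transcript counts of the same library by barcode, which placed 3656 of the 4088 cells. The strongly tagged cells were 96 of 2035 joined cells in the wildtype library (4.72%) and 89 of 1621 in the APLP1-/- library (5.49%), or 5.06% of both. A further 1139 cells had 5 to 9 tag counts (low) and 939 had 10 to 49 (mid). The cells were chosen by their tag counts alone, so the tag counts of each group are given as a description and the transcripts are compared.

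Of the study's 14 mouse neural stem cell samples, the 2 fresh transcript libraries and their 2 hash tag libraries are used here. The cells came from adult mice of genotype wildtype or APLP1-/-, the latter lacking the amyloid precursor-like protein gene Aplp1, and were captured without treatment by oligo(dT) on the 10x Genomics platform. The sources used here name no age beyond adult, no sex, no strain and no sort or gate. Each genotype is 1 library in which the tags mark the cells of 3 individual mice, so a difference between genotypes and one between libraries cannot be told apart, and an untagged cell was assigned to no mouse.

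Per the labels, the hashing antibodies bind MHC class I and CD45. MHC class I is a heavy chain paired with beta-2 microglobulin that shows peptides from inside a cell to cytotoxic T cells, and CD45, the product of Ptprc, is a phosphatase on the surface of leukocytes. In healthy brain, microglia and the endothelial cells of vessels carry class I more readily than neurons and their precursors, and microglia also carry CD45. The subventricular zone is the niche beside the lateral ventricle in which quiescent, astrocyte-like neural stem cells become cycling progenitors and then neuroblasts that migrate to the olfactory bulb.

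Tag counts ran on without a gap at either limit. The lowest strongly tagged cells had 50 and 52 tag counts in the wildtype and APLP1-/- libraries and the highest cells below the limit had 48 and 49. The highest untagged cells had 4 and the next cells 5. Median tag counts of strongly tagged cells were 180.5 and 266, with highest values of 2088 and 3546, against 3 and 3 in untagged cells. Strongly tagged cells held 71.0% of all tag counts found in cells, and in 176 of the 185 at least 75% of the counts lay on 1 tag, which assigned 17, 34 and 39 cells to the wildtype mice and 25, 26 and 35 to the APLP1-/- mice. Strongly tagged cells were not the deeper ones: their median transcript counts were 343 and 347 against 432 and 571.5 in untagged cells. Summed over cells, the strongly tagged groups held 41656 and 43381 transcript counts and the untagged groups 431883 and 529217, out of library totals of 1133263 and 1227695. The 432 cells with no line in the tag table were left out, and 324 of them (75%) had a barcode 1 mismatch from another cell, against 160 (4.38%) of joined cells. The libraries shared 13 barcodes, 6 of them joined to tags and 0 strongly tagged.

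Over both libraries, 109 of 185 strongly tagged cells (58.9%) were in 2 non-neural classes, microglia/macrophage-like and endothelial-like. Clusters were made from transcripts without the class I, peptide loading, CD45 and interferon genes and without Aplp1, and were named from marker lists. Of the 185 strongly tagged cells, 70 (37.8%, 95% Clopper-Pearson interval 30.8% to 45.3%, counting error only) were microglia/macrophage-like, 39 (21.1%) were endothelial-like, 38 (20.5%) were quiescent neural stem cell/astrocyte-like and 29 were in clusters without a name. The remaining cells were 4 active stem cell/transit amplifying-like, 3 neuroblast-like, 1 mature neuron-like and 1 oligodendrocyte-like. Untagged cells had another makeup: 460 of 1393 (33.0%) were quiescent, 383 (27.5%) active and 329 (23.6%) neuroblast-like, with 1 endothelial-like cell and 0 microglia/macrophage-like cells. The 2 non-neural classes together made up 47 of 96 strongly tagged cells (48.96%) in the wildtype library and 62 of 89 (69.7%) in the APLP1-/- library. By mouse their share was 70.6%, 55.9% and 41.0% in wildtype and 72.0%, 76.9% and 68.6% in APLP1-/-. The classes use the finest of the 3 clusterings run (resolution 2), chosen after seeing that the one at resolution 1 left the endothelial cells in a cluster without a name, with 38 strongly tagged cells of 87.

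**Figure D1:**
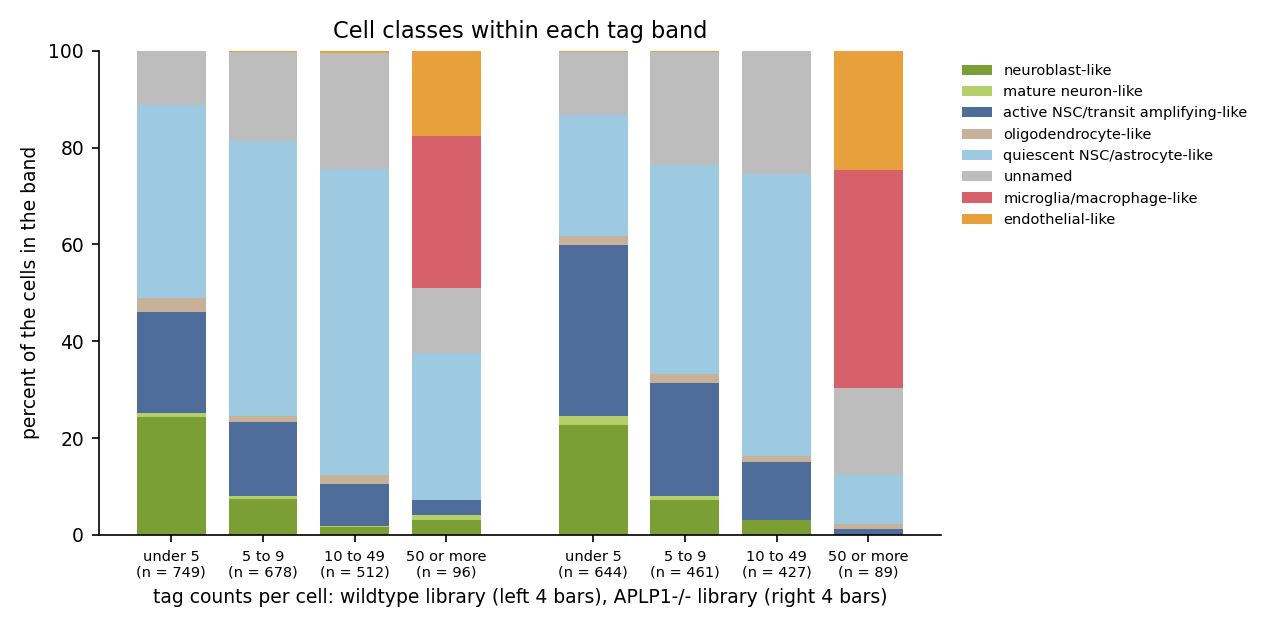
Makeup of each tag group by cell class, as a percentage of its cells (stacked bars, left 4 wildtype and right 4 APLP1-/-, from untagged to strongly tagged). Microglia/macrophage-like and endothelial-like cells fill 48.96% and 69.7% of the strongly tagged bars, and the untagged bars hold 0 microglia/macrophage-like cells.

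Read the other way, each class had its own tag level. All 70 microglia/macrophage-like cells joined to tags were strongly tagged (Clopper-Pearson 94.9% to 100%), with 94 to 972 tag counts and medians of 358 and 288.5 in the wildtype and APLP1-/- libraries. Of 45 endothelial-like cells, 39 (86.7%, 73.2% to 94.9%) were strongly tagged, with medians of 309 and 871.5 and a range of 1 to 3546. Quiescent cells followed at a distance, with 38 of 1655 strongly tagged (2.30%, 1.63% to 3.14%) and medians of 7 and 8. The active class had 4 of 695 (0.576%) and medians of 4 and 4, and the neuroblast-like class had 3 of 437 (0.686%) and medians of 3 and 3. Untagged cells made up 27.8% of the quiescent class, 55.1% of the active class and 75.3% of the neuroblast-like class (71.0% to 79.3%). The order from quiescent to active to neuroblast-like was the same in both libraries, with differences of a few tag counts. Within the strongly tagged cells, 108 of the 131 with 100 or more tag counts were microglia/macrophage-like or endothelial-like, whereas the 76 cells of other classes had a median of 80, and 53 of them lay between 50 and 99.

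**Figure D2:**
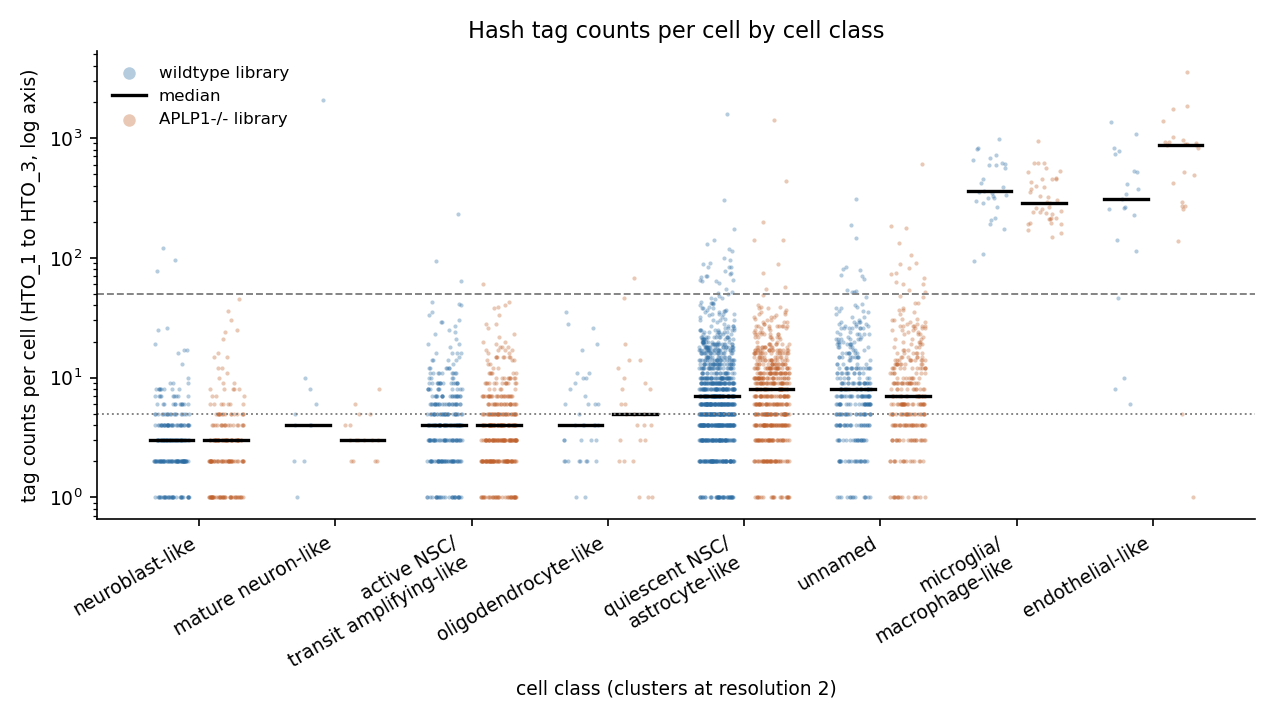
Tag counts of each joined cell, summed over the 3 tags (log axis, 1 point per cell), by cell class and library, with the median as a black bar and lines at 50 (dashed) and 5 (dotted). Every microglia/macrophage-like cell and most endothelial-like cells lie above 50, while the medians of the other named classes lie between 3 and 8.

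Transcripts were then compared between strongly tagged and untagged cells. Cells are not replicates, so counts were summed over the cells of each tag group in each library, which gave 8 sums, and edgeR's quasi-likelihood test compared strongly tagged with untagged sums with the library as a block. Of 5325 genes tested, 248 (4.66%) were higher and 287 (5.39%) were lower in strongly tagged cells at a Benjamini-Hochberg adjusted p under 0.05, which is 10.0% in either direction. Levels below are counts scaled to the total of a sum (CPM, the usual counts-per-million unit), and log2 differences come from the fit with their standard errors (SE). The p-values measure only the spread between these sums. In a sum, more cells of a type and more transcript per cell cannot be told apart, so the class that carried the counts is given beside each gene. The median log2 difference over all tested genes was -0.37, and -0.09 with DESeq2's size factors, under which 224 genes were higher and 148 lower; the share of calls that were higher was thus 46.4% with edgeR and 60.2% with DESeq2.

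Most tested transcripts of class I, one of the 2 targets of the antibodies, were higher in strongly tagged cells, and that of CD45 could not be tested. Of the 16 listed class I genes, 7 were in both tables, 5 were tested and 4 rose (B2m, H2-K1, H2-D1 and H2-Q4), against 4.66% of all genes. DESeq2 called B2m and H2-K1 only. The list had a median log2 difference of 4.199 against -0.37 over all genes. Their summed level went from 204 to 1104 CPM in the wildtype library, a ratio of 5.42 (95% Poisson interval 3.71 to 7.83), and from 193 to 1475 CPM in the APLP1-/- library, a ratio of 7.65 (5.51 to 10.6). The 6 mice had 1300, 896 and 1390 CPM (wildtype) and 1547, 1715 and 1435 CPM (APLP1-/-), so the strongly tagged cells of every mouse lay above both untagged pools. Of the 110 class I counts in strongly tagged cells, 92 were in microglia/macrophage-like and 11 in endothelial-like cells, the 11 in 5 of 39 cells.

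B2m, which encodes beta-2 microglobulin, the light chain shared by all class I molecules (ENSMUSG00000060802, chromosome 2, 122147687 to 122153082, GRCm38), was at 27.8, 38.5, 75.9 and 624 CPM in untagged, low, mid and strongly tagged wildtype cells. In the APLP1-/- library the same groups were at 18.9, 9.4, 51.2 and 484 CPM. The strongly tagged sums were far above the other 6 in both libraries, and the mid sums lay above the untagged ones in both. For the whole class I list the mid sum was above the untagged one in wildtype only (350 against 204 CPM). In APLP1-/- it was at 166 against 193 CPM. The log2 difference was 4.46 (SE 0.61, edgeR adjusted p = 7.19e-08). The mice had 520, 478 and 926 CPM in wildtype and 619, 429 and 437 CPM in APLP1-/-. Of the 47 B2m counts in strongly tagged cells, 38 came from microglia/macrophage-like, 6 from endothelial-like and 3 from quiescent cells.

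H2-K1, a classical heavy chain gene (ENSMUSG00000061232, chromosome 17, 33996012 to 34000619), had 10, 9, 18 and 9 counts in the 4 wildtype groups from untagged to strongly tagged and 6, 16, 7 and 20 in the APLP1-/- groups. This corresponds to a step from 23.2 to 216 CPM and from 11.3 to 461 CPM between untagged and strongly tagged cells, a log2 difference of 4.199 (SE 0.72, edgeR adjusted p = 1.34e-05). Mice differed widely, at 390, 298.5 and 66.2 CPM in wildtype and 61.9, 750.3 and 749 CPM in APLP1-/-. The 66.2 and 61.9 CPM are 1 count each, too few to set those 2 mice apart from the untagged pools. H2-D1, the other classical heavy chain gene of this list (ENSMUSG00000073411, chromosome 17, 35263094 to 35267497), went from 11.6 to 120 CPM and from 37.8 to 230.5 CPM. Its log2 difference was 2.69 (SE 0.91, edgeR adjusted p = 0.046). That call rests on 15 counts in strongly tagged cells, 14 of them in microglia/macrophage-like cells. Of the 6 fits that leave out 1 mouse it held only without wildtype mouse 1, with edgeR adjusted p from 0.0553 to 0.151 in the other 5, and DESeq2 gave 0.127.

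The 2 non-classical genes of the same region differed from each other. H2-Q4 (chromosome 17, 35379617 to 35384674) had 1 count in untagged cells and 6 in strongly tagged cells, a pooled ratio of 67.8 (Poisson interval 8.23 to 3119) and an edgeR adjusted p of 0.047; the 6 counts were in microglia/macrophage-like cells, and the call was lost without the library block, while DESeq2 gave no adjusted p. H2-T24 was at 134 and 72.0 CPM in untagged and strongly tagged wildtype cells and at 121 and 207.5 CPM in APLP1-/- cells, with a log2 difference of 0.03 (SE 0.64, edgeR adjusted p = 0.989). H2-T22 and Fcgrt were in both tables but had too few counts to be tested. Ptprc was listed in the wildtype table only, with 2 counts, both in strongly tagged cells. H2-T23 was also listed for wildtype only, with 1 count in untagged and 2 in strongly tagged cells, and H2-Q6 only for APLP1-/-, with 2 counts in strongly tagged cells. The H2 genes are near-identical copies between which the authors' counting could split or drop reads, so their separate values are less certain than their sum.

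The 3 heavy chain genes that rose have nearly the same short stretch in their promoters, shown because the genes moved together. Capitals mark a kappa B-like match (GG and TCCC with any 4 bases between them) and an interferon-response-like match (GAANNGAAA), each searched on both strands of the 300 bases from 250 before to 50 after the start of each gene (RefSeq, GRCm38.p6). The windows are chr17:34000428-34000457 (minus strand) for H2-K1, chr17:35262924-35262953 (plus strand) for H2-D1, chr17:35379444-35379473 (plus strand) for H2-Q4 and chr2:122147550-122147579 (plus strand) for B2m, whose capitals mark a pair of overlapping kappa B-like matches:
H2-K1: GGGATTCCCCatctccacagTTTCACTTCt
H2-D1: GGGATTCCCCatctcctcagTTTCACTTCt
H2-Q4: GGGATTTCCCatctccccagTTTCACTTCt
B2m: aactgaaaatGGGAAAGTCCCtttgtaacc
Of the 16 class I genes, 13 had a promoter in the table, and 6 of these held both motifs within 30 bases. Over all 32851 promoters, 20.7% held the first motif, 7.52% the second, 1.25% both and 0.149% both within 30 bases. A match is a run of letters and not a measured binding site.

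**Figure D3:**
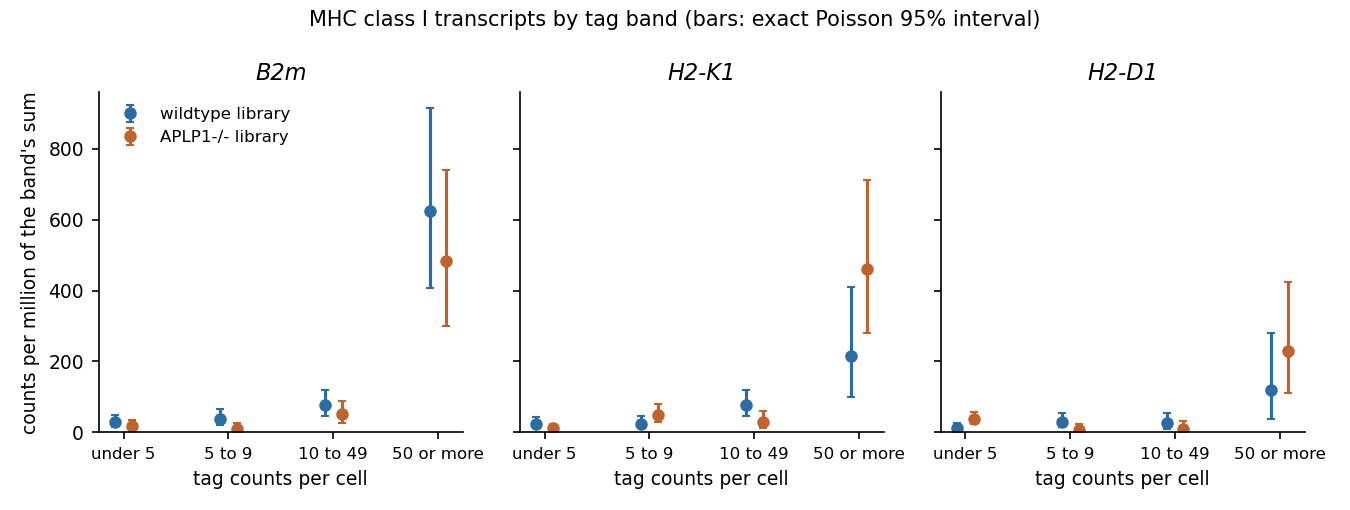
Level of B2m, H2-K1 and H2-D1 (CPM, linear axis) in the 4 tag groups of each library, with 95% Poisson intervals of the counts. The strongly tagged group is the highest for all 3 genes in both libraries, with B2m at 624 and 484 CPM.

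The machinery that loads class I with peptide was mostly not called. Of the 14 listed peptide loading and processing genes, 12 were in both tables, 5 were tested and 1 rose, against 4.66% of all genes. The median log2 difference was 0.08, or 0.50 with genes at 0 set to their bound. The summed level went from 1125 to 1560 CPM in wildtype, a ratio of 1.39 (Poisson interval 1.05 to 1.80). In APLP1-/- it went from 1113 to 1683 CPM, a ratio of 1.51 (1.17 to 1.93). Tapbp, which encodes tapasin, the bridge between class I and the peptide transporter, went from 50.9 to 216 CPM in wildtype and from 30.2 to 323 CPM in APLP1-/- (log2 difference 2.65, SE 0.65, edgeR adjusted p = 0.0027). Of its 23 counts in strongly tagged cells, 19 were in microglia/macrophage-like cells. The chaperone Canx was at 850 and 1032 CPM in wildtype and 873 and 922 CPM in APLP1-/- cells (edgeR adjusted p = 0.894), and Calr had a log2 difference of 0.61 (adjusted p = 0.532). The interferon response list went from 107 to 672 CPM in wildtype, a ratio of 6.31 (Poisson interval 3.80 to 10.3). In APLP1-/- it went from 121 to 507 CPM, a ratio of 4.19 (2.46 to 6.90). It had 18 of 24 genes in both tables and 3 tested. Of these edgeR called Ifitm3, an antiviral membrane protein also made by vessel cells (log2 difference 4.72, SE 1.23, edgeR adjusted p = 0.00578). DESeq2 called it too, and also Ifit1, which had too few counts for the edgeR test (DESeq2 adjusted p = 0.0192). All 15 Ifitm3 counts in strongly tagged cells were in endothelial-like cells, at 860 CPM in wildtype mouse 3, 124 CPM in APLP1-/- mouse 1 and 0 in the other 4 mice. MHC class II had 1 of 7 genes in both tables and 0 tested, with 6 counts of the list in strongly tagged wildtype cells and 0 in strongly tagged APLP1-/- cells.

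Microglial transcripts were higher in strongly tagged cells. Of 20 listed microglia/macrophage genes, 16 were tested and 15 rose, against 4.66% of all genes, with a median log2 difference of 7.51, or 6.19 with genes at 0 in untagged cells set to their lower bound. The summed level of the list went from 62.5 to 6386 CPM in wildtype and from 62.4 to 9151 CPM in APLP1-/-. The mice ranged from 4301 to 16400.5 CPM, none near the untagged pools, and 645 of the 663 counts were in microglia/macrophage-like cells. These genes also define that class, whose cells were all strongly tagged, so the steps restate its makeup.

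Cx3cr1, the fractalkine receptor of microglia, had 6 counts in untagged and 49 in strongly tagged wildtype cells and 14 and 82 in APLP1-/- cells, a step from 13.9 to 1176 CPM and from 26.5 to 1890 CPM. Its log2 difference was 6.11 (SE 0.47, edgeR adjusted p = 6.18e-16). C1qb, a chain of the complement starter C1q, had 1 count in all untagged cells and 36 and 47 in strongly tagged cells, a pooled ratio of 938 (Poisson interval 164 to 37493). Several genes had 0 counts in untagged cells, and their bounds take 3 counts over the untagged group as the floor. C1qc was at least 207-fold higher, Tyrobp, an adaptor of myeloid receptors, at least 128-fold, the protease gene Ctss at least 113-fold, Tmem119 at least 75.3-fold and Trem2 at least 56.5-fold. Csf1r, the receptor for the microglial survival factor, had a log2 difference of 6.15 (SE 0.78, edgeR adjusted p = 1.04e-08). Cd68, a lysosomal protein of phagocytes, was the tested member that edgeR did not call (log2 difference 4.21, adjusted p = 0.0633), though DESeq2 did (adjusted p = 0.0205).

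The leukocyte surface genes moved with the microglial ones. Of 12 listed, 3 were tested and 2 rose, against 4.66% of all genes. Cd53, a tetraspanin of leukocytes, went from 1 to 38 and from 4 to 68 counts (log2 difference 7.75, SE 0.61, edgeR adjusted p = 2.66e-15). Laptm5, a lysosomal protein of blood cells, went from 2 to 13 counts over both libraries, a ratio of 73.5 (Poisson interval 16.6 to 671). All 106 Cd53 counts and all 13 Laptm5 counts of strongly tagged cells were in microglia/macrophage-like cells. The 16 listed markers of border macrophages, monocytes, neutrophils and lymphocytes had 0 members in both tables, so other leukocytes could not be looked for with them.

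Inflammatory messengers of microglia were high in both genotypes and higher in the APLP1-/- library. Of 15 listed chemokine and complement genes, 4 were tested and 4 rose, against 4.66% of all genes. The median log2 difference was 8.64 (7.28 with bounds), and all 381 counts of the list in strongly tagged cells were in microglia/macrophage-like cells. Ccl4, a chemokine that draws monocytes and T cells, had 0 and 43 counts in untagged and strongly tagged wildtype cells and 2 and 202 in APLP1-/- cells, at 1032 and 4656 CPM in the strongly tagged sums. The pooled ratio was 1385 (Poisson interval 379 to 11497; log2 difference 10.15, SE 0.53, edgeR adjusted p = 2.59e-23). Its neighbour in function Ccl3 was at least 173-fold higher, and the cytokine gene Tnf had a ratio of 164 (41.5 to 1417). By mouse the list summed to 1950, 1911 and 1456 CPM in wildtype and 8910, 7932 and 5867 CPM in APLP1-/-. The 2 sets of mice did not overlap. The same held for the class I, endothelial and immediate early lists, all higher in APLP1-/-. In the remaining lists, the microglia/macrophage list among them, the sets overlapped or tied. The leukocyte surface list, for example, had 1430, 1731 and 463 CPM in wildtype and 3094, 2144 and 1685 CPM in APLP1-/-. All lists were summed over the same cells, and how often the sets separate over all genes was not counted. The sets are also the 2 libraries, in which microglia/macrophage-like cells were 30 and 40 of the strongly tagged cells. These differences were not tested.

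Vessel transcripts formed the second group. Of 20 listed endothelial genes, 8 were tested and 7 rose, against 4.66% of all genes, with a median log2 difference of 4.02. These genes also name the endothelial-like class, so their steps restate its makeup. The list went from 194 to 2665 CPM in wildtype, a ratio of 13.7 (Poisson interval 10.2 to 18.4), and from 155 to 3919 CPM in APLP1-/-, a ratio of 25.3 (19.3 to 33.3). The mice had 3121, 2209 and 3242 CPM in wildtype and 3341, 4181 and 4806 CPM in APLP1-/-, all far above the untagged pools, and 242 of the 281 counts were in endothelial-like cells. Flt1, a receptor for vascular endothelial growth factor, went from 1 to 61 counts over both libraries (ratio 689, Poisson interval 119 to 27672), with 58 of the 61 in endothelial-like cells. Ly6c1 was at least 151-fold and Ly6a at least 56.5-fold higher, each with 0 counts in untagged cells. The glucose transporter gene Slc2a1 rose from 32.4 to 312 CPM and from 7.56 to 277 CPM (log2 difference 3.83, SE 0.70, edgeR adjusted p = 4.41e-05). Bsg, a surface glycoprotein of the blood-brain barrier, rose from 116 to 504 CPM and from 94.5 to 553 CPM (log2 difference 2.24, SE 0.44, adjusted p = 1.46e-04).

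Smaller groups of non-neural genes were carried by few counts. Of the pericyte, smooth muscle and fibroblast list, 3 genes were tested and 2 rose, against 4.66% of all genes. Rgs5, a pericyte marker, had 0 counts in untagged cells and 16 and 1 in strongly tagged wildtype and APLP1-/- cells (at least 64.0-fold higher), with 16 of the 17 in endothelial-like cells. Col1a2, a collagen chain of fibroblasts, had 2 and 8 counts (ratio 45.2, Poisson interval 9.02 to 437), and its 8 counts were in quiescent-class cells. In the ependymal list 2 genes were tested and 1 rose, Ccdc153, on 4 counts (at least 15.1-fold higher). Among the genes with the greatest increases outside these groups, Cd83 and Icam1, both surface proteins of activated immune cells, and Plek, a platelet and leukocyte protein, had 0 counts in untagged cells and were at least 151-fold, 151-fold and 79.1-fold higher. All 40 Cd83 and all 40 Icam1 counts were in microglia/macrophage-like cells. Of the 93 genes of all lists that edgeR called in either direction, DESeq2 called 61, did not call 30 and gave 2 (H2-Q4 and Ccdc153) no adjusted p. Among the genes named as higher it did not call C1qc, Ctss, Tmem119, Trem2, Ccl3, Ly6a, Rgs5, Cd83 and Icam1 (adjusted p from 0.213 to 0.362) or Laptm5 (adjusted p = 0.487), all of which had 0 to 2 counts in untagged cells.

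Immediate early genes, transcribed soon after a stimulus such as tissue dissociation, were higher in strongly tagged cells. Of 22 listed, 20 were tested and 19 rose, against 4.66% of all genes, with a median log2 difference of 3.66. Their sum went from 3022 to 18125 CPM in wildtype (ratio 6.00) and from 3806 to 25541 CPM in APLP1-/- (ratio 6.71). The mice had 18073, 18747 and 19852 CPM in wildtype and 26668, 30228 and 23154 CPM in APLP1-/-, so every mouse was above the untagged pools. Of 1863 counts of these genes in strongly tagged cells, 1682 (90.3%) were in microglia/macrophage-like or endothelial-like cells, which held them at 31745 and 36014 CPM. Strongly tagged quiescent cells held them at 3016 CPM and untagged cells at 3453 CPM.

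Zfp36, whose product degrades cytokine messenger RNAs, went from 18.5 to 1392 CPM in wildtype and from 22.7 to 1890 CPM in APLP1-/- (log2 difference 6.20, SE 0.45, edgeR adjusted p = 7.05e-17). The transcription factor gene Junb went from 57.9 to 1560 CPM and from 110 to 1913 CPM (log2 difference 4.31, SE 0.35, adjusted p = 8.69e-15). Fos, already at 660 and 916 CPM in untagged cells, rose less, to 1896 and 3435 CPM (log2 difference 1.62, SE 0.24, adjusted p = 4.05e-07). In these genes both strongly tagged sums lay above both untagged sums. The member not called, Nr4a1, had a log2 difference of 1.68 (SE 0.76, adjusted p = 0.162).

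Neurogenic transcripts went the other way. Of 20 listed neuroblast genes, 17 were tested and 12 fell, against 5.39% of all genes, with a median log2 difference of -2.67 (-2.25 with bounds). The sum went from 11246 to 2809 CPM in wildtype and from 9206 to 2397 CPM in APLP1-/-, and the mice lay between 750.3 and 4331 CPM, all below both untagged pools. Of the 221 counts of the list left in strongly tagged cells, 87 were in microglia/macrophage-like cells. Sox4, a transcription factor of newborn neurons, had 1881 and 26 counts in untagged and strongly tagged wildtype cells and 1734 and 49 in APLP1-/- cells, a fall from 4355 to 624 CPM and from 3277 to 1130 CPM. Its log2 difference was -2.25 (SE 0.26, edgeR adjusted p = 1.04e-09). Cd24a, a surface protein of neuroblasts, fell from 708 to 72.0 CPM and from 830 to 115 CPM (log2 difference -3.15, SE 0.48, adjusted p = 1.08e-06). Dcx, a microtubule protein of migrating neuroblasts, had 0 and 5 counts in strongly tagged cells against 170 and 162 in untagged cells, with 4 of the 5 in APLP1-/- mouse 1 (log2 difference -2.67, adjusted p = 0.00685). Sox11 and Igfbpl1 had 0 counts in strongly tagged cells and were at least 3.95-fold and 5.01-fold lower.

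Some progenitor and cell cycle genes fell as well, while most of those tested were not called. In the active stem cell list, 16 genes were tested and 6 fell (Ccnd2, Rrm2, Hmgb2, Dlx2, Top2a and Dlx1), against 5.39% of all genes, with a median log2 difference of -2.04. Ccnd2, a cyclin that drives entry into the cycle, fell from 2640 to 672 CPM in wildtype and from 3184 to 254 CPM in APLP1-/- (log2 difference -2.75, SE 0.29, edgeR adjusted p = 9.08e-11). Rrm2, a subunit of the enzyme that makes deoxynucleotides, had 1 count in each strongly tagged sum and was 20.8-fold lower (Poisson interval 5.74 to 173). Pclaf, which binds the replication clamp, had 162 and 307 counts in untagged and 0 in strongly tagged cells, and was at least 13.8-fold lower. The S phase list had 4 of 14 tested genes lower (Rrm2, Uhrf1, Mcm6 and Dut) and a median of -2.33 (-1.46 with bounds), and the G2/M list had 3 of 15 lower (Nusap1, Top2a and Ube2c) and a median of -2.05 (-1.40 with bounds). Uhrf1 was 8.23-fold lower (Poisson interval 2.25 to 68.4) and Nusap1 12.3-fold lower (3.38 to 102). DESeq2 called 7 neuroblast, 4 active stem cell, 1 S phase and 1 G2/M gene lower, and Dcx, Top2a and Uhrf1 were among those it did not call (adjusted p = 0.0814, 0.0878 and 0.0986). Other genes with 0 counts in strongly tagged cells included Banf1 (at least 5.49-fold lower), Racgap1 (4.92-fold), H1fx (4.66-fold), Smarce1 (4.34-fold) and Metap1d and Setbp1 (4.28-fold each).

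Quiescent stem cell and astrocyte genes were little changed as a list. Of 29 tested, 2 rose and 4 fell, where 4.66% of all genes rose and 5.39% fell, with a median log2 difference of -0.16 against -0.37 over all genes. The list summed to 33201 and 30512 CPM in untagged and strongly tagged wildtype cells and 20757 and 20516 CPM in APLP1-/- cells, with mice from 12612 to 37255 CPM on both sides of the pools. Hes5, a target of Notch that keeps stem cells undivided, fell from 604 to 72.0 CPM and from 939 to 161 CPM (log2 difference -2.81, SE 0.44, edgeR adjusted p = 1.77e-06). The glutamate transporter gene Slc1a3 fell by 0.83 (SE 0.21, adjusted p = 0.00436) and the gap junction gene Gja1 by 0.58 (SE 0.18, adjusted p = 0.0305), both on the log2 scale. With 20 in place of 50 tag counts as the lower limit, Gja1 and Slc1a3 turned to 0.71 and 0.56, both past the threshold. Id3, an inhibitor of basic helix-loop-helix factors, rose by 2.52 (SE 0.61, adjusted p = 0.00257), with 17 of its 22 counts in endothelial-like cells, and was lost without APLP1-/- mouse 1 (adjusted p = 0.106). Id2 rose by 0.71 (adjusted p = 0.0303), and of the 6 mice it held only without wildtype mouse 1 (adjusted p otherwise 0.0521 to 0.232). Gja1 was lost without APLP1-/- mouse 2 (adjusted p = 0.0755) and with DESeq2 (adjusted p = 0.12).

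The remaining lists held few calls, where 4.66% of all genes were higher and 5.39% lower. The mature neuron list had 1 of 6 tested genes lower, Celf4 (5.84-fold, Poisson interval 1.97 to 28.6). Of 14 ribosomal protein genes tested, edgeR called 0, while 1 was lower with p under 0.05 before adjustment and DESeq2 called 0; their median was -0.39 with edgeR and -0.41 with DESeq2. Of 21 oxidative phosphorylation genes 1 was lower (4.76%, near the share over all genes), Sdhb, a subunit of succinate dehydrogenase (at least 2.06-fold). DESeq2 called neither Celf4 nor Sdhb (adjusted p = 0.0986 for each), and the 1 tested nuclear long noncoding RNA had no call with either tool and no unadjusted p under 0.05. Among 13 tested genes for proteins that other surface labels read, Icam1, Itgb5 and Cd9 rose and Cd24a and Slc1a3 fell. Cd9, a tetraspanin, rose from 139 to 600 CPM and from 106 to 323 CPM (log2 difference 1.81, SE 0.43, edgeR adjusted p = 0.00224).

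Aplp1 itself was almost missing from strongly tagged cells. It had 120, 69, 54 and 1 counts in the wildtype groups from untagged to strongly tagged and 22, 17, 13 and 0 in the APLP1-/- groups, at 278 and 24.01 CPM in untagged and strongly tagged wildtype cells and 41.6 and 0 CPM in APLP1-/- cells. The pooled level was 12.6-fold lower in strongly tagged cells (Poisson interval 2.22 to 500; log2 difference -3.70, SE 1.10, edgeR adjusted p = 0.0184). The deleted gene thus still had counts in the library labelled APLP1-/-, at a lower level than in wildtype. The call was lost with DESeq2 at a similar log2 difference (-3.50, adjusted p = 0.0936). With 20 in place of 50 tag counts as the lower limit, the difference was -0.54 (edgeR adjusted p = 0.643). It was also lost without the microglia/macrophage-like and endothelial-like cells (adjusted p = 0.153). In the APP family list 7 genes were tested, and Adam10, a protease that sheds APP and other surface proteins, rose from 618 to 1584 CPM and from 601 to 1637 CPM (log2 difference 1.30, SE 0.27, adjusted p = 2.93e-04), with 79 and 36 of its 137 counts in microglia/macrophage-like and endothelial-like cells. Without those cells its log2 difference was -0.53 (edgeR adjusted p = 0.52), and with 20 or more tag counts it was 0.67 (adjusted p = 0.0583). App had a log2 difference of 1.00 (SE 0.62, adjusted p = 0.335).

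Without the microglia/macrophage-like and endothelial-like cells, the class I difference was no longer called. The remaining 49 and 27 strongly tagged cells held 21271 and 12499 counts. Of 5375 genes tested, 43 (0.800%) were higher and 146 (2.72%) lower, 3.52% in all, and the median log2 difference was -0.67. B2m had 2 counts in wildtype and 1 in APLP1-/- strongly tagged cells, at 94.0 CPM against 27.8 in untagged and 80.0 CPM against 18.9. Its log2 difference was 1.22 (SE 1.26, edgeR adjusted p = 0.636), and those of H2-K1 and H2-D1 were 0.14 (SE 1.77) and -0.58 (SE 1.78). Of 4 class I genes tested, 0 were called and 0 had an unadjusted p under 0.05. Leaving out instead every cell with a count of a microglia, border macrophage, endothelial or pericyte gene gave 22 higher (0.486%) and 131 lower (2.89%) of 4530 genes, 3.38% in all, with B2m at -0.04 (adjusted p = 0.991). With these few counts a difference of several fold in either direction was not detectable. In CPM of the pooled strongly tagged cells, the class I list was at 2390 (Poisson interval 1927 to 2931) in microglia/macrophage-like, 861 (430 to 1541) in endothelial-like and 201 (41.5 to 588) in quiescent cells, against 198 in all untagged cells.

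The same removal ended the immediate early gene calls and left part of the neurogenic ones. Of the remaining strongly tagged cells 38 were quiescent, 4 active and 3 neuroblast-like, against 460, 383 and 329 of the untagged cells. The quiescent, active stem cell and neuroblast lists also name these classes. In the steps of these lists, class makeup and level per cell thus cannot be told apart. Of 15 immediate early genes tested, edgeR called 0 and 0 had an unadjusted p under 0.05, with a median log2 difference of -0.07; Fos was at 0.30 (SE 0.34, adjusted p = 0.684). Among neuroblast genes 7 of 18 fell, with Sox4 at -2.62 (SE 0.34, edgeR adjusted p = 3.8e-11) and Cd24a at -3.69, and 6 of 16 active stem cell genes fell. Of the quiescent and astrocyte list 3 genes rose: Apoe, the main lipid carrier of astrocytes, from 2209 to 4560 CPM in wildtype and from 1592 to 8241 CPM in APLP1-/- (log2 difference 1.08, SE 0.27, edgeR adjusted p = 0.00327), Cpe, a peptide-processing enzyme, by 1.37 (adjusted p = 0.00137) and the metallothionein gene Mt3 by 1.49 (adjusted p = 0.00717). After leaving out cells by marker count instead, Cpe alone of these rose (adjusted p = 0.00595), with Apoe at 0.71 (adjusted p = 0.131) and Mt3 at 1.25 (adjusted p = 0.0935). Hes5 fell without the 2 classes too (-2.26, adjusted p = 0.00183). The calls shared with those over all cells numbered 133, which is 24.9% of the 535 over all cells and 70.4% of the 189 here, and 131 of them had the same sign, 19 higher and 112 lower.

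**Figure D4:**
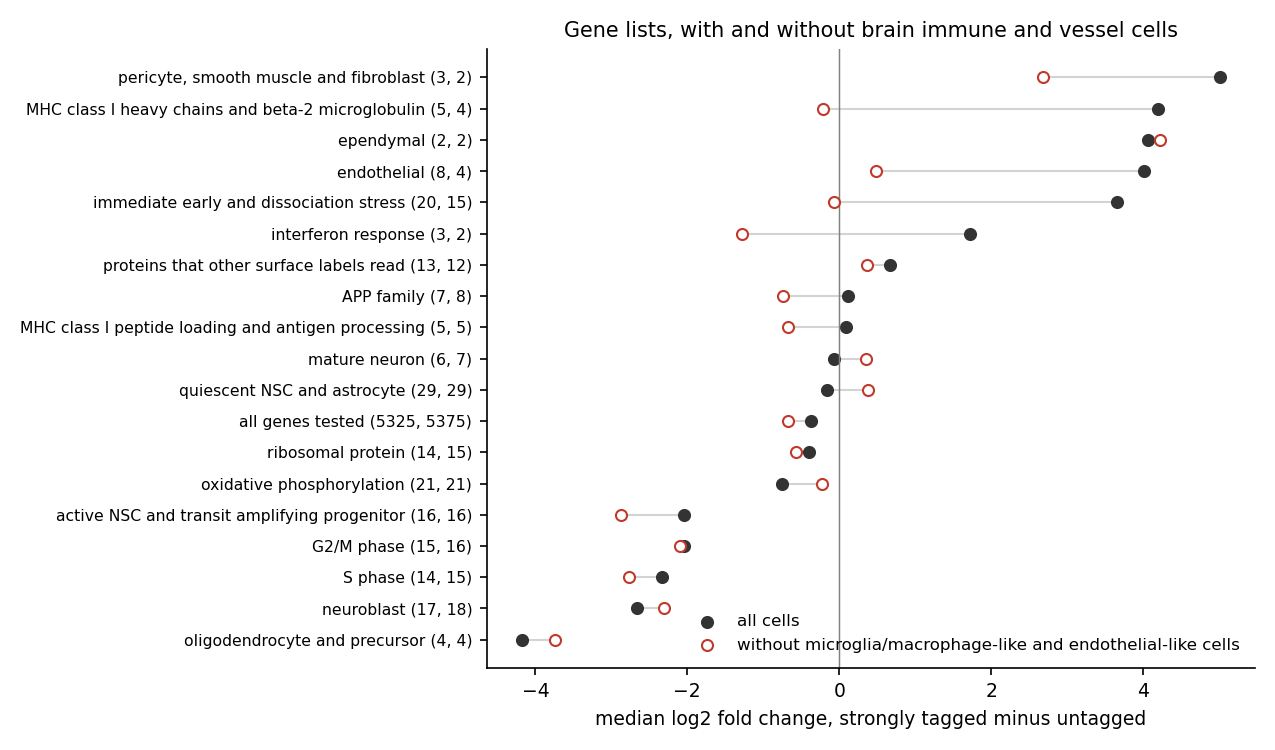
Median log2 difference (strongly tagged minus untagged) of each gene list with at least 2 genes tested in both fits. Filled points are over all cells and open red points without microglia/macrophage-like and endothelial-like cells, with the number of genes tested in each. The microglia/macrophage, leukocyte surface, and chemokine and complement lists, among others, had fewer tested genes and are not drawn. The class I, endothelial and immediate early medians go from 4.199, 4.02 and 3.66 over all cells to -0.22, 0.48 and -0.07, and the neuroblast median from -2.67 to -2.31.

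Quiescent cells were the one neural class with enough strongly tagged cells to compare within a class. In the clustering at resolution 1 they numbered 1796, of which 39 were strongly tagged (27 wildtype and 12 APLP1-/-, 10278 and 5010 counts) and 493 untagged (317 and 176). Of 2614 genes tested, 1 was higher (0.0383%) and 36 lower (1.38%), 1.42% in all, with a median log2 difference over all genes of -0.81 that became 0.87 with DESeq2, which called 21 higher and 15 lower. B2m had 6, 7, 7 and 2 counts in the wildtype groups from untagged to strongly tagged and 0, 0, 10 and 1 in the APLP1-/- groups, with a pooled ratio of 6.76 (Poisson interval 1.09 to 31.7) and an edgeR adjusted p of 0.473. H2-K1 had 9 counts in untagged and 0 in strongly tagged quiescent cells. Of 2 class I genes tested, edgeR called 0, and 0 had an unadjusted p under 0.05. The limit of 10 strongly tagged cells per library for this comparison was chosen after seeing the data, since no class reached the planned 30.

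Several genes were lower in the strongly tagged cells of the class by edgeR. Nr2f2, an orphan nuclear receptor, had 75 and 69 counts in untagged and 0 in strongly tagged quiescent cells (at least 3.55-fold lower), and Cbx5, Hmgcs1, Tet2, Mrfap1 and Aplp1 also had 0 (at least 2.83-fold, 2.19-fold, 2.07-fold, 2.00-fold and 2.29-fold lower). DESeq2 called Nr2f2 but none of these 5 (adjusted p from 0.0519 to 0.135), and of the 6 fits that leave out 1 mouse the Aplp1 call held in 1 and the Mrfap1 call in 2. Grm3, a glutamate receptor of astrocytes, was at 2937 and 973 CPM in wildtype and 1586 and 0 CPM in APLP1-/- cells (log2 difference -2.64, SE 0.54, edgeR adjusted p = 0.00113). Of 26 quiescent and astrocyte list genes tested, 3 fell, with a median of -0.96 against -0.81 over all genes. Among them, Gja1 went from 19010 to 12357 CPM and from 15623 to 5988 CPM (log2 difference -1.62, SE 0.30, adjusted p = 2.16e-04). Slc1a3 went from 10459 to 5351 CPM and from 9228 to 7385 CPM, with a log2 difference of -1.40. For both genes the fitted fall was larger than the CPM step of either library, where the fitted median over all genes was -0.81. Microglial transcripts were at the same time higher in these sums: the microglia/macrophage list, with 15 of its 19 genes in both tables at 0 in strongly tagged cells, went from 118 to 778 CPM in wildtype (8 counts, ratio 6.61, Poisson interval 2.43 to 16.6) and from 62.9 to 599 CPM in APLP1-/- (3 counts, ratio 9.51, 1.48 to 48.9). The interferon list went from 118 to 681 CPM in wildtype (7 counts, ratio 5.78, 1.99 to 15.1) and from 126 to 0 CPM in APLP1-/-. Further lists were higher in wildtype. The active stem cell list went from 707 to 2724 CPM (28 counts, ratio 3.85, 2.43 to 5.95). Ratios were 2.43 (1.15 to 4.70) for the neuroblast list and 2.68 (1.08 to 5.85) for the pericyte, smooth muscle and fibroblast list. In APLP1-/- the active list went from 1385 to 1397 CPM, and the neuroblast and pericyte ratios were 1.17 (0.309 to 3.18) and 1.32 (0.151 to 5.32). The part of all these lists in the lower values was not tested. Without TMM scaling 1 gene was called, which was higher, and 0 were lower. The 2 strongly tagged sums are small, and without APLP1-/- mouse 3 the count of calls went from 37 to 2, without APLP1-/- mouse 1 to 17, and without wildtype mouse 2 or 3 to 61 or 88.

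The share of cells with any class I transcript was higher among strongly tagged cells at 200 counts per cell, while at 400 the intervals overlapped in both libraries. With every cell thinned to 200 counts, 16 of 85 strongly tagged wildtype cells (18.8%, Clopper-Pearson 11.2% to 28.8%) and 15 of 79 APLP1-/- cells (19.0%, 11.0% to 29.4%) had one. Among untagged cells the shares were 23 of 691 (3.33%, 2.12% to 4.95%) and 18 of 617 (2.92%, 1.74% to 4.57%), and in neuroblast-like cells, which should carry little class I, 11 of 434 (2.53%, 1.27% to 4.49%; median depth 477 counts before thinning). The untagged shares were close to that of neuroblast-like cells. Most cells of that class, taken here from the clustering at resolution 1, were themselves untagged (75.1%), so it gives no independent background. Thinning left out 11 and 10 strongly tagged and 58 and 27 untagged cells with fewer counts, and the unthinned shares were 25% and 25.8% against 6.68% and 8.70%. Thinned to 400 counts, 2 of 31 strongly tagged wildtype cells (6.45%, 0.791% to 21.4%) had one against 5.56% (3.55% to 8.22%) of untagged cells, and 6 of 34 APLP1-/- cells (17.6%, 6.76% to 34.5%) against 6.36% (4.27% to 9.07%). Among the 70 microglia/macrophage-like cells, 35 (50%) had a class I count without thinning, although all carried 94 or more tag counts.

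**Figure D5:**
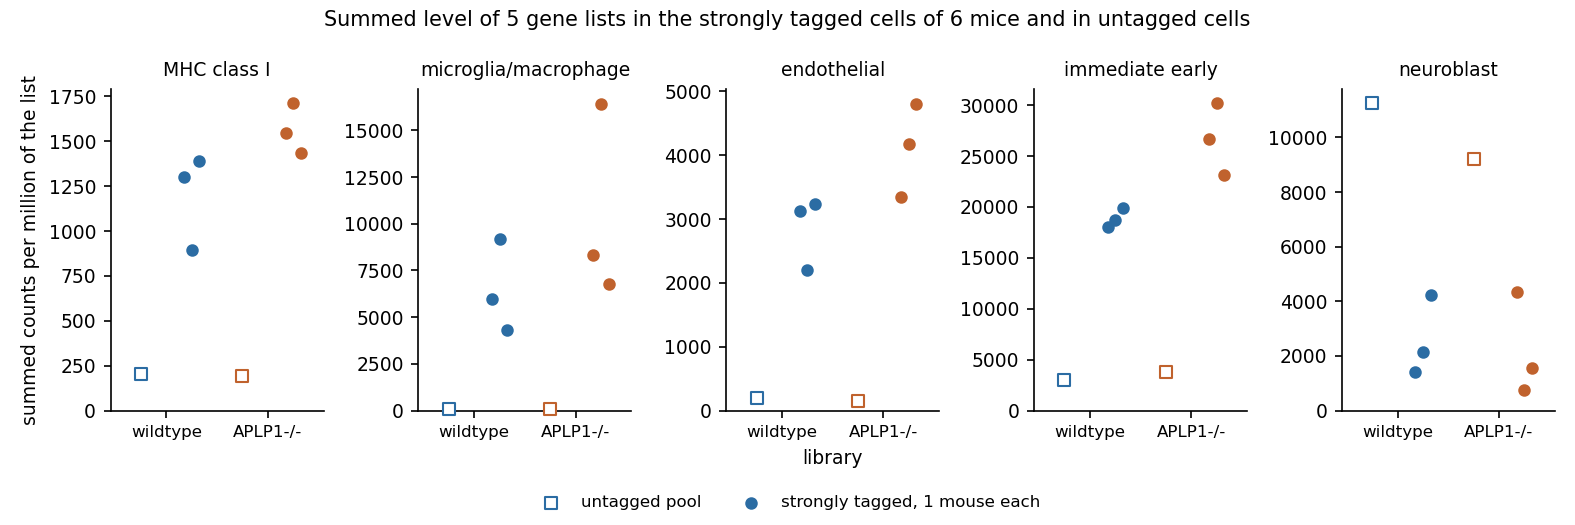
Summed level (CPM) of 5 gene lists in the strongly tagged cells of each of the 6 mice (dots) and in the untagged pool of each library (squares). The class I, microglial, endothelial and immediate early lists lie above the untagged pool in all 6 mice and the neuroblast list below it.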

How the data were processed

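The authors deposited unnormalized counts: of each gene in each cell barcode for the wildtype and APLP1-/- fresh cells, and of each tag on each barcode for the hash tag libraries. Per the submitters' processing notes Cell Ranger, Bowtie2 and SAMtools were used with build mm10; versions, cell filters, strand setting, and whether counts are reads or molecules were found in no source used here. The tables hold 13288 and 13338 genes, 12470 in both, and 99.1% of identifiers had a symbol in RefSeq's GRCm38.p6 table.

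Barcodes were matched exactly within a library. Counts were summed over the cells of 4 tag groups in each library (8 sums, 3 residual degrees of freedom) and fitted with edgeR 4.0.16 (R 4.3.3; filterByExpr, TMM, glmQLFTest, library as block), adjusted by Benjamini-Hochberg over all genes; the fit was tested on simulated data. DESeq2 1.42.0 was an alternative. Cells were clustered with scanpy 1.11.5 (2000 variable genes, 30 components, 15 neighbours, resolution 0.5, 1 or 2). Doublets and free RNA were not removed. Intervals are 95% and cover counting error only.

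The tag limits and the 24 gene lists were chosen with earlier results of these data known. Genes named are those of the bound proteins and Aplp1, the 10 greatest changes each way, and the 2 of smallest p in each list with 3 or more calls. The greatest changes were taken past the threshold of the joint fit. They also needed the same direction in both libraries and a mean of 10 or more counts in the higher group. Other list members named were chosen after their values were seen. Some genes past the threshold, and the oligodendrocyte list, are not reported here.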

Additional observations from a re-analysis of the deposited data

Results flagged for a closer look

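Tags were also counted on barcodes that are not cells of the transcript tables. Of 93723 such barcodes in the wildtype hash tag library 250 had 50 or more tag counts, and of 90145 in the APLP1-/- library 98 had, while the median was 1 in both. A single wildtype barcode outside the cells held 518239 tag counts, 52.7% of that library's tag table. Tag counts in cells were 4.64% and 18.4% of the wildtype and APLP1-/- tables.

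Of the 21 lists in which at least 2 genes were tested, 2 had opposite signs in the 2 libraries, and these differences were not tested. The median log2 ratio of strongly tagged to untagged cells for the mature neuron list was 0.90 in the wildtype library and -2.36 in the APLP1-/- library. The list summed to 5201, 657 and 728 CPM in the 3 wildtype mice, and 1 mature neuron-like cell of the strongly tagged wildtype cells held 2358 of their transcript counts. For the ribosomal protein list the medians were 0.16 in the wildtype library and -0.63 in the APLP1-/- library.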

How the results depend on the processing

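Over all cells the 535 calls became 293 with only strongly tagged and untagged sums in the fit, 349 with under 2 tag counts as untagged and 306 with every cell thinned to 200 counts. Without the microglia/macrophage-like cells of the coarser clustering (resolution 1), which named no endothelial-like cluster, 340 were called. Without the microglia/macrophage-like and endothelial-like clusters of the finer one (resolution 2) there were 189. Leaving out all cells with a count of a microglial, vessel or pericyte gene gave 153. The other settings gave between 364 (20 or more tag counts) and 748 (100 or more), and leaving out 1 mouse gave 479 to 564. The bands share a library, and fits with no replicate block called 430 genes over all cells and 26 in the quiescent class; the labels give the fresh libraries no numbers that pair them. Without cells holding a marker count, log2 differences turned to -1.36 for Adam10, -0.044 for B2m, -0.49 for Id2, -0.56 for Junb and -6.19 for Tapbp. Without the 2 classes of the finer clustering they turned to -0.53 for Adam10, -0.070 for Egr1, -0.58 for H2-D1, -1.02 for Junb, -0.021 for Tapbp and -0.068 for Zfp36. Without the microglia/macrophage-like cells of the coarser one, where endothelial cells stayed in, H2-D1 turned to -0.89. With 20 or more tag counts Gja1 turned to 0.71, Slc1a3 to 0.56 and, in the quiescent class, Mrfap1 to 0.22.

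The 37 calls in the quiescent class became 76 with no filter on low counts, 136 with 100 or more and 2 with 20 or more tag counts, 6 with thinned cells, 56 with strongly tagged cells of 1 tag, 19 in the finer clustering and 1 without TMM. edgeR called 0 with only strongly tagged and untagged sums (23 at an unadjusted p under 0.05) and 0 with under 2 tag counts as untagged (158), against 36 called by DESeq2; leaving out 1 mouse gave 2 to 88. The share of wildtype cells with a class I count became 6.45% (strongly tagged) and 5.56% (untagged) when thinned to 400 counts, and that of untagged APLP1-/- cells 6.36%; not thinned, the untagged shares were 6.68% and 8.70%. The causes of these changes were not tested. The median tag counts of the microglia/macrophage-like, quiescent, active and neuroblast-like classes were within the spread between cells at all clustering resolutions run. Depth limits these results: strongly tagged cells had medians of 343 and 347 counts, and single class I genes rest on 47 counts or fewer.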
